A study of Mus musculus with 9 samples.

Results

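The 6 genes described here are Cpe, Npy, Coch, Ccn3, Tnfrsf11b and Hsd11b2, out of 18193 mouse genes with a probe set annotated to 1 symbol. They were chosen by their intensity, near background in IL15tg spleen and very high in both NKDxIL15tg groups. The levels that set these groups apart are therefore given below as a description without a test. The genes have 9 of the 45101 probe sets, and 8 of the 9 passed the filter on low values (a mean intensity over all arrays of at least 47.74, on the log2 scale). The arrays measured RNA of sorted natural killer (NK) cells, innate lymphocytes that kill infected or transformed cells. There were 3 arrays each for NK cells from bone marrow of NKDxIL15tg mice, from spleen of NKDxIL15tg mice and from spleen of IL15tg mice, labelled as biological replicates. The study calls the NKDxIL15tg cells immature and the IL15tg cells mature. All mice carried the IL15tg transgene, for a cytokine on which NK cells depend for survival, and NKD is a transgenic background known for a shortage of mature NK cells. Promoters of the transgenes, strain, age, sex and the surface markers of the sort are not stated in the sources used here. Since every immature group and no mature group is NKD, genotype and maturity cannot be told apart, nor can organ in NKDxIL15tg bone marrow against IL15tg spleen.

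Of the 6 genes, 5 encode proteins that leave the cell, while Hsd11b2 encodes an enzyme that stays in the membrane of the endoplasmic reticulum. Cpe (carboxypeptidase E) trims basic residues from the ends of hormone and neuropeptide precursors inside secretory granules, and Npy encodes neuropeptide Y, a peptide messenger of sympathetic nerves whose precursor is trimmed in that way. Coch encodes cochlin, a secreted matrix protein best known from the inner ear, and Ccn3 encodes a matricellular protein that binds integrins and Notch. Tnfrsf11b encodes osteoprotegerin, a soluble decoy receptor that captures the TNF-family ligands RANKL and TRAIL. Hsd11b2 inactivates glucocorticoids and so shields the mineralocorticoid receptor in kidney from them. They are textbook genes of endocrine, neural, matrix, bone and kidney biology rather than of NK cells.

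RefSeq promoter windows on build GRCm38.p6, which run over 250 bases before to 50 after a gene's start, were matched for 2 of the 6 genes, Npy and Coch, and are shown for their base composition. Both windows lie on the plus strand, Npy at chr6:49822460-49822759 and Coch at chr12:51593091-51593390. Capitals mark each GC box (GGGCGG) and each TATA box (TATAAA) found on either strand.
Npy: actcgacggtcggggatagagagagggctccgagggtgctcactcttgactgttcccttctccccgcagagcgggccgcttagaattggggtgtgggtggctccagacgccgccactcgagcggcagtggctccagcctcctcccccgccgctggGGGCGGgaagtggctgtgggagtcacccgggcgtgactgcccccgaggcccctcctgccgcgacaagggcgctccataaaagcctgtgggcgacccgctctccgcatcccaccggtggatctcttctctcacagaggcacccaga
Coch: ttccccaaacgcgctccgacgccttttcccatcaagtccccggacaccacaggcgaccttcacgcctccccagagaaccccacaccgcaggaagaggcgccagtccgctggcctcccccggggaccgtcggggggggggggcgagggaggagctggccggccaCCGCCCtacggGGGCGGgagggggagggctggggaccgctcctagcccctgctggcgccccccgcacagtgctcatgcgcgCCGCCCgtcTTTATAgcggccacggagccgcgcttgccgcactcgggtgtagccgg
Bases G and C made up 68.0% of the Npy window (the 87.4th percentile of 32851 promoters) and 73.7% of the Coch window (the 94.9th percentile), against a median of 52.7%. The Npy window held 24 CpG dinucleotides and the Coch window 32, against a median of 7. Npy had 1 GC box, which began 95 bases before the start, and Coch had 3, which began 87, 76 and 6 bases before it. At least 1 GC box stood in 35.66% of all promoters. The Coch window also held TATAAA on the minus strand, as 13.62% of all promoters did on either strand. The cyclic AMP response element (TGACGTCA, in 1.79% of promoters) and its core TGACG, which lies within it (20.81%), were in neither window.

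The arrays were alike in overall brightness, except that NKDxIL15tg bone marrow replicate 3 had a median intensity of 64.9, against 56.6 to 59.1 elsewhere, and its 75th percentile also stood apart (167.7, against 130.6 to 140.6). The 10 NK cell markers had a summed intensity of 26402.2 to 28614.9 in NKDxIL15tg bone marrow, 29369.0 to 31648.4 in NKDxIL15tg spleen and 39912.1 to 41169.6 in IL15tg spleen. Gzma gave the largest part (means of 9130.5, 10559 and 11530 in that order of groups). Klrk1 averaged only 195.7, 172.5 and 1383, and Klrd1 897.7, 1231.5 and 5941. Against IL15tg spleen in limma, 0 of the 10 rose and 4 fell in NKDxIL15tg bone marrow, and 0 rose and 3 fell in NKDxIL15tg spleen. Over all tested genes, 11.5% rose and 8.7% fell in bone marrow and 7.65% rose and 4.87% fell in spleen. Markers of granulocytes and monocytes moved with the groups, at summed intensities of 11157.9 to 28424.5, 3380.8 to 7850.0 and 1274.1 to 1609.7 in the same order of groups, for 9 of 10 markers with a probe set. Erythroid markers (6 of 8) summed to 5452.0 to 7400.4 in NKDxIL15tg bone marrow, 7490.5 to 8068.5 in NKDxIL15tg spleen and 1706.3 to 1888.6 in IL15tg spleen. Most of these sums came from Car2 (means of 5986, 7016 and 1407 in NKDxIL15tg bone marrow, NKDxIL15tg spleen and IL15tg spleen), and Hba-a1 was under the 40th percentile of every array. Other lists separated the groups in the opposite direction. B cell markers (7 of 8) summed to 243.2 to 268.3 in NKDxIL15tg bone marrow, 362.9 to 415.1 in NKDxIL15tg spleen and 705.4 to 1291.5 in IL15tg spleen, with Ebf1 under the 40th percentile everywhere. Macrophage and dendritic cell markers (8 of 8) summed to 1003.8 to 1542.6, 1536.4 to 1775.3 and 3942.3 to 5380.6. Itgax (means of 51.8, 60.8 and 1703), H2-Aa and Cd74 carried this difference. Other markers of the list did not share it: Adgre1 averaged 108.0, 110.8 and 108.8, Cd68 46.5, 54.6 and 37.8 and Flt3 344.0, 154.0 and 156.5. Single NKDxIL15tg bone marrow arrays read from 112.4 to 726.6 for Flt3. The part of all these cells in the levels of the 6 genes was not tested. Lists for cell types that textbooks name as sources of several of the 6 genes were read too, in the same order of groups. The neural and neuroendocrine list (10 of 10) summed to 428.9 to 452.7, 415.4 to 441.0 and 395.6 to 431.1. Chgb, Snap25, Nefm and Uchl1 were under the 40th percentile of every array, and Syt1, the brightest, averaged 83.5, 92.1 and 78.4. Stroma and osteoblast markers (8 of 11) summed to 377.7 to 458.5, 337.9 to 345.6 and 322.5 to 361.0. Cxcl12, Col1a1, Sp7 and Lum were under that percentile everywhere, while Col1a2, the brightest, averaged 121.5, 85.5 and 79.4. Endothelial markers (7 of 7) summed to 344.0 to 393.8, 371.1 to 481.2 and 372.4 to 429.4. Vcam1, the brightest of these, averaged 95.8, 175.9 and 134.8. The part of these cells was not tested either. In sorted bulk samples such as these, fewer cells of a type and less RNA per cell cannot be told apart.

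All 6 genes lay higher in each NKDxIL15tg array than in any IL15tg array, as the choice of genes required. For scale, all 3 arrays lay above those of IL15tg spleen in 22.5% of the 27022 tested probe sets in NKDxIL15tg bone marrow and in 19.3% in NKDxIL15tg spleen. Both sets of values rest on the same 3 IL15tg arrays.

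Among the genes of peptide hormone making, the Cpe probe set 1415949_at read 563, 726 and 406 in NKDxIL15tg bone marrow, 1415, 1090.1 and 947 in NKDxIL15tg spleen and 13.9, 11.9 and 17.6 in IL15tg spleen. The 3 groups were all apart, and the gene was the single member of the 6 in which the 2 NKDxIL15tg groups did not overlap. Cpe was 33.3-fold higher in NKDxIL15tg bone marrow and 68.7-fold higher in NKDxIL15tg spleen than in IL15tg spleen (log2 differences of 5.06 ± 0.22 and 6.10 ± 0.22, limma's standard error, n = 3 arrays per group), with 2 of 3 IL15tg arrays set to the floor of 16.

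Npy (1419127_at) read 1349, 1101 and 1220.0 in NKDxIL15tg bone marrow, 1122, 980.4 and 974 in NKDxIL15tg spleen and 33.3, 37.8 and 39.0 in IL15tg spleen. The NKDxIL15tg arrays of both organs lay in 1 narrow band, in which the organs overlapped. Npy was 33.3-fold higher in NKDxIL15tg bone marrow and 27.9-fold higher in NKDxIL15tg spleen than in IL15tg spleen (log2 differences of 5.06 ± 0.12 and 4.80 ± 0.12). The IL15tg values stood at the 24.0th to 30.0th percentile of their arrays and were all above the floor.

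Of the matrix genes, Coch (1423285_at) read 2209, 2146 and 1969 in NKDxIL15tg bone marrow, 2535, 2682 and 2182 in NKDxIL15tg spleen and 58.4, 49.3 and 56.3 in IL15tg spleen. Its NKDxIL15tg values stood at the 98.0th to 99.0th percentile of their arrays and its IL15tg values at the 42.9th to 50.0th, so the IL15tg reading was near the middle of each array rather than at its bottom. Coch was 38.6-fold higher in NKDxIL15tg bone marrow and 45.1-fold higher in NKDxIL15tg spleen than in IL15tg spleen (log2 differences of 5.27 ± 0.12 and 5.49 ± 0.12).

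Ccn3 (1426851_a_at) read 311, 501 and 659 in NKDxIL15tg bone marrow, 364, 529.8 and 871 in NKDxIL15tg spleen and 16.8, 20.9 and 26.2 in IL15tg spleen. Replicates of 1 group lay far apart: the highest array was 2.12 times the lowest in NKDxIL15tg bone marrow and 2.39 times in NKDxIL15tg spleen. Ccn3 was 22.3-fold higher in NKDxIL15tg bone marrow and 26.3-fold higher in NKDxIL15tg spleen than in IL15tg spleen (log2 differences of 4.48 ± 0.35 and 4.72 ± 0.35).

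The decoy receptor gene Tnfrsf11b (1449033_at) read 411, 392 and 288 in NKDxIL15tg bone marrow, 366, 448 and 459.6 in NKDxIL15tg spleen and 3.83, 5.43 and 14.0 in IL15tg spleen. All IL15tg values lay under the floor of 16, so its fold is a bound: Tnfrsf11b was at least 22.5-fold higher in NKDxIL15tg bone marrow and at least 26.4-fold higher in NKDxIL15tg spleen. A second probe set of the gene, 1418309_at, read 36.1 ± 2.29 in NKDxIL15tg bone marrow, 39.7 ± 3.54 in NKDxIL15tg spleen and 30.5 ± 0.626 in IL15tg spleen (SD, n = 3 arrays each). It stayed below the filter. Its mean lay only 0.24 and 0.37 on the log2 scale above IL15tg spleen in NKDxIL15tg bone marrow and spleen, though its NKDxIL15tg and IL15tg arrays did not overlap. The high level of Tnfrsf11b therefore rests on 1 of its 2 probe sets. The labelling kit amplified from the 3′ end of each transcript, and where the 2 probe sets lie in the transcript is not stated in the sources used here.

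The enzyme gene Hsd11b2 (1416761_at) read 867, 685 and 549 in NKDxIL15tg bone marrow, 958, 735 and 429 in NKDxIL15tg spleen and 21.8, 25.2 and 28.1 in IL15tg spleen. The organs overlapped fully, with means of 700.4 ± 160 in NKDxIL15tg bone marrow and 707.3 ± 266 in NKDxIL15tg spleen. Hsd11b2 was 27.7-fold higher in NKDxIL15tg bone marrow and 27.0-fold higher in NKDxIL15tg spleen than in IL15tg spleen (log2 differences of 4.79 ± 0.28 and 4.75 ± 0.28).

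Second probe sets of Cpe and Ccn3 repeated the direction. Cpe's dimmer set (1439437_x_at) read 76.6, 111.3 and 53.9 in NKDxIL15tg bone marrow, 163, 147 and 134 in NKDxIL15tg spleen and 18.4, 13.7 and 8.87 in IL15tg spleen, a smaller contrast of 2.20 ± 0.23 and 3.14 ± 0.23 on the log2 scale for NKDxIL15tg bone marrow and spleen over IL15tg spleen. Ccn3's (1426852_x_at) gave log2 differences of 4.79 ± 0.34 and 5.01 ± 0.34, close to its other set. An x in such a name marks probes that may also bind related transcripts.

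**Figure D1:**
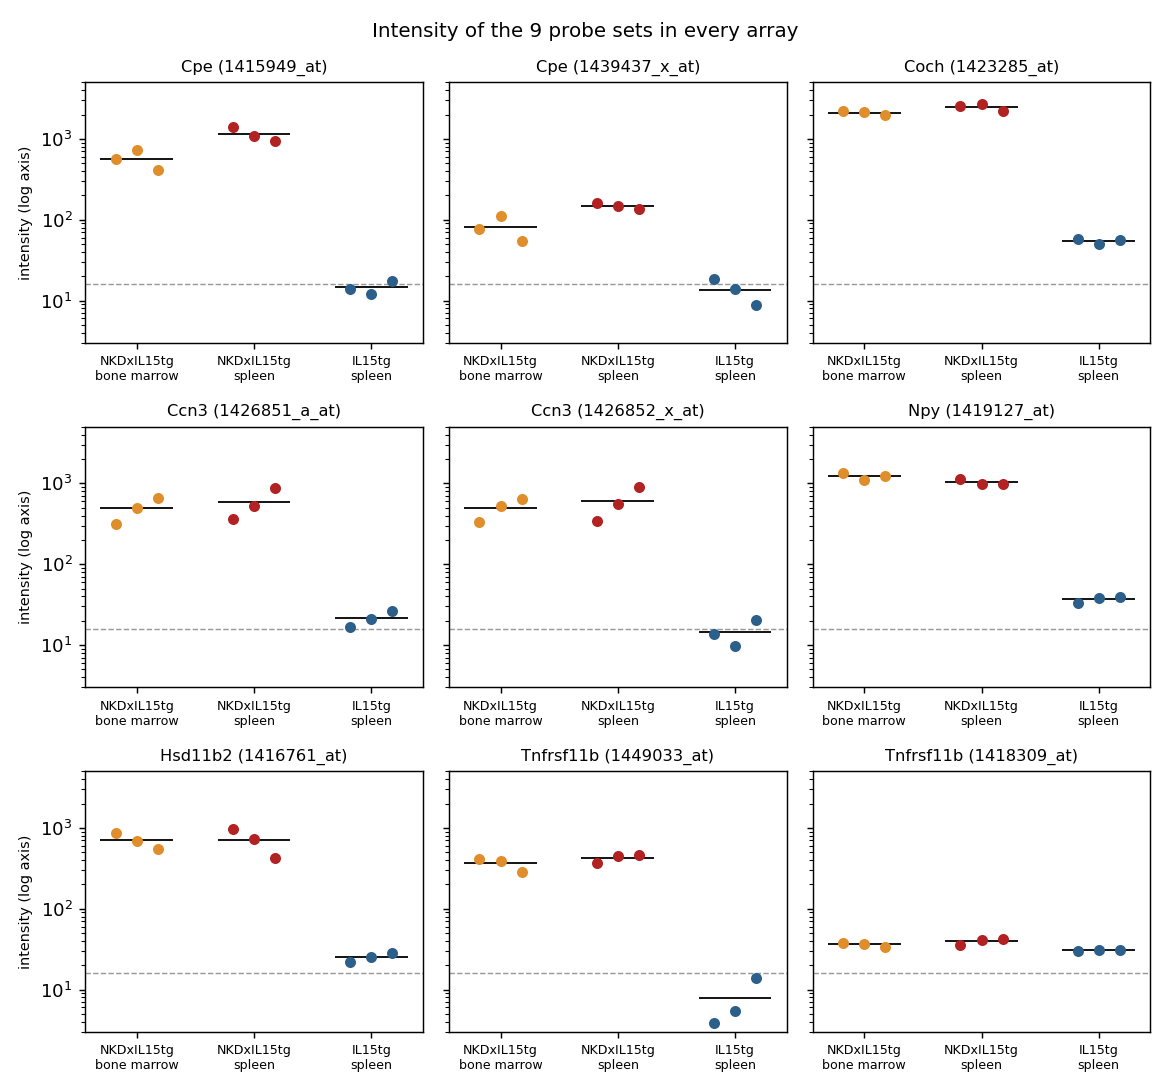
Intensity (log axis) of the 9 probe sets of the 6 genes in each array, with NKDxIL15tg bone marrow, NKDxIL15tg spleen and IL15tg spleen as columns of 3 points in order of replicate number, the bar at the group mean and the dashed line at the floor of 16. In 8 probe sets the NKDxIL15tg points lie far above the IL15tg points, while Tnfrsf11b 1418309_at stays between 29.8 and 42.4 in all 9 arrays.

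In both organs, 18 of 12925 tested genes lay at least 16-fold higher than in IL15tg spleen, with values under the floor set to 16. The 6 genes are among them by the way they were chosen. A further 3 genes lay at least 16-fold lower.

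NKDxIL15tg bone marrow against NKDxIL15tg spleen asked whether the 6 genes depend on the organ, the 1 contrast that did not choose them. None of the 6 passed (0 of 6 at an adjusted p of 0.05 in limma, with 1 of 6, Cpe, at an unadjusted p under 0.05, as 10.4% of all tested probe sets were). Of all tested probe sets, 0.0518% passed, or 14, and 23 with the replicate number as a block. That the genes had to be high in both organs limits how far they could differ.

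Cpe had the widest gap of the 6, with means of 565 ± 160 in NKDxIL15tg bone marrow and 1151 ± 240 in NKDxIL15tg spleen. The log2 difference was -1.05 ± 0.22, with a 95% interval of -1.54 to -0.55 (unadjusted p = 0.000953, adjusted p = 0.287 in limma, and 0.236 with the replicate block). All 3 NKDxIL15tg bone marrow arrays lay below all 3 of NKDxIL15tg spleen, as in 6.31% of tested probe sets, and the second Cpe probe set did so too (-0.94, 95% interval -1.45 to -0.42, adjusted p = 0.337). Both sets of Cpe therefore read lower in bone marrow in every array, a difference that did not survive adjustment over all probe sets.

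The other 5 differed less. Npy was 0.25 higher in NKDxIL15tg bone marrow on the log2 scale (interval -0.02 to 0.53, adjusted p = 0.479 in limma), and higher in each of 3 pairs of arrays with the same replicate number. Coch differed by -0.22 (-0.49 to 0.05, adjusted p = 0.487), lower in all 3 such pairs. Tnfrsf11b differed by -0.23 (-0.58 to 0.11, adjusted p = 0.516), and by -0.07 without NKDxIL15tg bone marrow replicate 3. All 3 intervals lay within 1 log2 unit of 0. For Ccn3 the difference was -0.24 (-1.04 to 0.57, adjusted p = 0.786) and for Hsd11b2 0.04 (-0.60 to 0.68, adjusted p = 0.965). Within pairs of the same replicate number, Ccn3 was lower in NKDxIL15tg bone marrow in 3 of 3 and Hsd11b2 in 2 of 3. Leaving out 1 array, which breaks a pair, turned the sign of both. How often all tested probe sets keep 1 direction within such pairs was not counted.

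**Figure D2:**
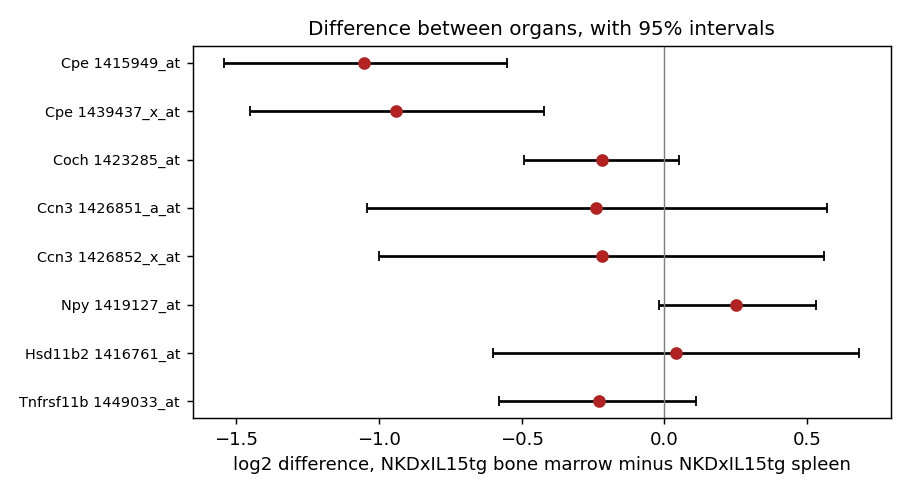
Log2 difference of NKDxIL15tg bone marrow minus NKDxIL15tg spleen for each tested probe set of the 6 genes, with limma's 95% interval. The 2 intervals of Cpe lie below 0, and all the others span it.

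The 6 genes differed in how far replicates scattered. In NKDxIL15tg spleen the SD of log2 intensity was 0.63 for Ccn3 and 0.59 for Hsd11b2, at the 98.4th and 98.0th percentile of tested probe sets, against a median of 0.16. It was 0.29 for Cpe, 0.18 for Tnfrsf11b, 0.15 for Coch and 0.12 for Npy. In NKDxIL15tg bone marrow the order was much alike, with 0.55 for Ccn3, 0.42 for Cpe, 0.33 for Hsd11b2, 0.28 for Tnfrsf11b, 0.15 for Npy and 0.09 for Coch, against a median of 0.20. Ccn3 was highest in replicate 3 and lowest in replicate 1 in both organs, and Hsd11b2 the other way round. These were the 2 of 6 genes whose 3 replicate numbers stood in the same order in both organs. How many of all tested probe sets do so was not counted, so this is a description.

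Profiles were compared by the root mean square difference of log2 values over the 9 arrays, each profile centred on its own mean. This measure includes the difference from IL15tg spleen that chose the 6 genes, and it treats values under the floor of 16 as equal. Likeness by it is therefore a description. Between members it ran from 0.299 for Npy and Hsd11b2 to 0.820 for Cpe and Ccn3. The genes nearest to the mean profile of the 6 were Dlx1 (0.215), Dmrta2 (0.254), Ptprg (0.259), Tbx18 (0.30) and Gja3 (0.412). Dlx1, a homeobox transcription factor of forebrain interneurons, averaged 572.7 in NKDxIL15tg bone marrow, 697.3 in NKDxIL15tg spleen and 16.2 in IL15tg spleen. It was also the nearest gene to Cpe (0.442) and to Coch (0.223). Tbx18, a T-box transcription factor, was nearest to Npy (0.231), the connexin gene Gja3 to Hsd11b2 (0.310), the ephrin receptor gene Epha3 to Ccn3 (0.284) and the granzyme gene Gzmk to Tnfrsf11b (0.359). Of these, Gzmk alone is a granule protease gene of lymphocytes, with means of 3542, 3706 and 237.2 in NKDxIL15tg bone marrow, NKDxIL15tg spleen and IL15tg spleen.

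Genes that work with the 6 were read next, from lists of their processing enzymes, receptors, ligands and relatives. Of 74 such genes, 71 had a probe set and 50 were tested. In NKDxIL15tg bone marrow against IL15tg spleen, 5 rose and 10 fell, with a median log2 change of 0.10, beside 0.12 over all tested genes, of which 11.5% rose and 8.7% fell. In NKDxIL15tg spleen against IL15tg spleen, 5 rose and 5 fell, with a median of -0.02, beside 0.02 over all tested genes, of which 7.65% rose and 4.87% fell. Between the organs of NKDxIL15tg mice, 0 of 50 genes passed in limma (4 higher and 6 lower at an unadjusted p under 0.05).

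Of 18 genes of prohormone processing, 11 were tested. Furin, a protease that cuts precursors in the secretory pathway, fell in both organs, with means of 60.4 ± 5.15 in NKDxIL15tg bone marrow, 61.0 ± 18 in NKDxIL15tg spleen and 116.3 ± 16 in IL15tg spleen. Its log2 change was -0.94 ± 0.20 in bone marrow (adjusted p = 0.0113 in limma) and -0.96 ± 0.20 in spleen (adjusted p = 0.0148, but up to 0.0622 without IL15tg replicate 2 or 3 or NKDxIL15tg spleen replicate 2). Pam, the enzyme that amidates peptides after carboxypeptidase E has trimmed them, as happens in making neuropeptide Y, also fell. It averaged 112.0 ± 8.49 in NKDxIL15tg bone marrow, 109.2 ± 19.8 in NKDxIL15tg spleen and 232.2 ± 40.8 in IL15tg spleen (-1.04 ± 0.17, adjusted p = 0.00306, and -1.09 ± 0.17, adjusted p = 0.00355). In NKDxIL15tg bone marrow the convertase gene Pcsk6 rose by 0.86 ± 0.17 (adjusted p = 0.00751). Pcsk1n, an inhibitor of a convertase, rose there by 0.89 ± 0.25 (adjusted p = 0.0346, up to 0.111 without any 1 of the IL15tg arrays or NKDxIL15tg spleen replicate 1, and 0.0776 with a floor of 64). Pcsk1, a convertase of neuroendocrine granules, averaged 114.4 ± 75.2 in NKDxIL15tg bone marrow, 57.8 ± 4.02 in NKDxIL15tg spleen and 62.9 ± 8.37 in IL15tg spleen and did not pass in either organ (adjusted p = 0.211 and 0.909). Of the granule protein genes of neuroendocrine cells, Chga, Chgb, Scg2 and Scg5 were below the filter. Scg3 averaged 65.5 ± 14.9 in NKDxIL15tg bone marrow, 47.1 ± 1.21 in NKDxIL15tg spleen and 55.0 ± 7.4 in IL15tg spleen (adjusted p = 0.326 and 0.479 in limma). Vgf averaged 99.7 ± 47, 60.3 ± 5.37 and 69.5 ± 8.67 in the same groups (adjusted p = 0.275 and 0.724).

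Receptors for neuropeptide Y were below the filter in all 5 cases, Npy1r, Npy2r, Npy4r, Npy5r and Npy6r, with group means of 23.9 to 43.6. The peptidase gene Dpp4, which trims neuropeptide Y, averaged 72.6 ± 18 in NKDxIL15tg bone marrow, 63.3 ± 3.59 in NKDxIL15tg spleen and 69.8 ± 11.3 in IL15tg spleen (adjusted p = 0.902 and 0.755 for the 2 organs in limma). Of 8 genes in this list 3 were tested, and 0 passed in any comparison (at an unadjusted p under 0.05, 1 was higher in each comparison of NKDxIL15tg bone marrow).

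The ligand and receptor genes around osteoprotegerin did not pass by their brightest probe sets (0 of 4 tested in each comparison in limma, and 0 at an unadjusted p under 0.05). Tnfsf11, which encodes RANKL, was below the filter, with means of 43.1, 46.3 and 42.4 in NKDxIL15tg bone marrow, NKDxIL15tg spleen and IL15tg spleen. Tnfsf10, which encodes TRAIL, averaged 225.3 ± 104, 178.9 ± 16.4 and 185.6 ± 14.5 (adjusted p = 0.615 and 0.946). Its second tested probe set gave -0.89 (adjusted p = 0.00657) in bone marrow and -0.86 ± 0.17 (adjusted p = 0.0112) in spleen. The 2 tested probe sets of Tnfsf10, out of 3, therefore disagree. Tnfrsf11a, the RANKL receptor RANK, averaged 113.0 ± 69.3, 69.9 ± 7.66 and 69.9 ± 8.96 and did not pass (adjusted p = 0.272 and 0.999).

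Of 15 genes related to Ccn3, 12 were tested. The integrin chains Itgb5 and Itgb1, parts of receptors that bind CCN3, rose in NKDxIL15tg spleen. Itgb5 averaged 274.2 ± 56.5 in NKDxIL15tg bone marrow, 397.1 ± 43.5 in NKDxIL15tg spleen and 195.6 ± 21.4 in IL15tg spleen, a change of 1.02 ± 0.17 in spleen (adjusted p = 0.00478). The gene has 4 probe sets, and the other tested set gave -0.23 in spleen (adjusted p = 0.8). Itgb1 rose by 0.66 in bone marrow (adjusted p = 0.0336, up to 0.11 when 1 array, any of IL15tg replicates 1 to 3 or NKDxIL15tg bone marrow replicates 1 and 3, was left out) and by 0.84 ± 0.18 in spleen. The spleen call had an adjusted p of 0.0182, and of up to 0.0739 without IL15tg replicate 2 or 3 or NKDxIL15tg spleen replicate 1. Ccn5, a family member of Ccn3, averaged 113 ± 1.67 in NKDxIL15tg spleen and 82.9 ± 8.51 in IL15tg spleen (0.45 ± 0.12, adjusted p = 0.0381 in limma). With the replicate block Ccn5 had an adjusted p of 0.0568, with scaling to the 75th percentile 0.12, and up to 0.14 when any array but NKDxIL15tg bone marrow replicates 1 and 3 was left out. Ccn1 and Ccn2, the other founding members of the family, were below the filter.

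Among Notch genes of that list, the target gene Hes1 fell in both organs, with means of 46.9 ± 0.693 in NKDxIL15tg bone marrow, 45.4 ± 1.99 in NKDxIL15tg spleen and 71.0 ± 12.3 in IL15tg spleen. Its change was -0.58 ± 0.13 in bone marrow (adjusted p = 0.013 in limma) and -0.63 ± 0.13 in spleen (adjusted p = 0.0133), but with a floor of 64, above most of these values, 0.398 and 0.496. The receptor gene Notch1 fell in NKDxIL15tg bone marrow by 0.49 on the log2 scale (adjusted p = 0.0281, up to 0.0963 without any 1 of the IL15tg arrays or NKDxIL15tg bone marrow replicate 2), while its other probe set gave -0.53 (adjusted p = 0.0778).

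Of the 6 tested genes listed with Coch, which include domain relatives and the protease gene Adamts5, Matn2 stood out. It encodes matrilin 2, a secreted matrix protein with von Willebrand A domains like those of cochlin. It averaged 172 ± 12.6 in NKDxIL15tg bone marrow, 487 ± 63.6 in NKDxIL15tg spleen and 16.2 ± 8.99 in IL15tg spleen, with no overlap between any 2 groups and IL15tg values of 10.5 to 26.6, partly under the floor. Matn2 rose by 3.18 ± 0.20 in bone marrow (adjusted p = 2.08e-05 in limma) and by 4.68 ± 0.20 in spleen (adjusted p = 2.59e-06). Its second probe set gave 1.59 (adjusted p = 3.88e-05) and 2.99 (adjusted p = 1.37e-06). Between organs the brighter set gave -1.50 ± 0.20 (adjusted p = 0.0666) and the second set -1.40 ± 0.11 (adjusted p = 0.00506), so NKDxIL15tg bone marrow read lower than NKDxIL15tg spleen on both sets, as for Cpe, and passed on 1. The list that holds Matn2 was chosen with earlier results of these data known. The other 5 tested genes of that list did not pass against IL15tg spleen by their brightest probe sets. A second set of Crispld2 gave 0.44 in NKDxIL15tg bone marrow (adjusted p = 0.0299) and 0.13 in NKDxIL15tg spleen (adjusted p = 0.56).

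**Figure D3:**
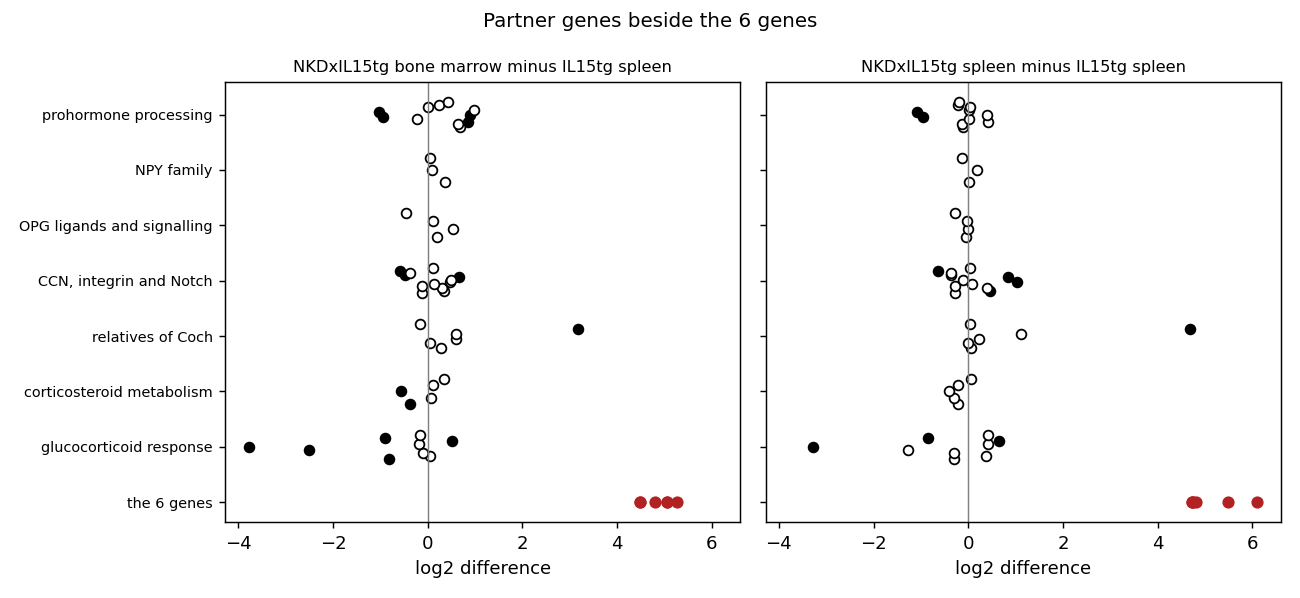
Log2 change of the tested partner genes by list in each NKDxIL15tg group against IL15tg spleen, with the 6 genes in red and partner genes past the threshold filled. The 6 genes lie between 4.48 and 6.10, and among partner genes Matn2 lies nearest to them, at 3.18 in NKDxIL15tg bone marrow and 4.68 in NKDxIL15tg spleen.

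Around Hsd11b2, the opposite enzyme Hsd11b1, which regenerates active glucocorticoid, was bright in all groups. It averaged 2547 ± 183 in NKDxIL15tg bone marrow, 2810 ± 132 in NKDxIL15tg spleen and 3281 ± 74.8 in IL15tg spleen. Hsd11b1 fell in bone marrow by 0.37 on the log2 scale (adjusted p = 0.0295, up to 0.0888 without any of the IL15tg arrays or NKDxIL15tg bone marrow replicate 1 or 3, and 0.0855 with scaling to the 75th percentile), and in spleen it was at -0.22 ± 0.10 (adjusted p = 0.178). RNA of both enzymes was thus read in the NKDxIL15tg groups, and in IL15tg spleen that of Hsd11b1 with Hsd11b2 near background. Nr3c1, the glucocorticoid receptor, averaged 308.1 ± 24.7, 349 ± 76.7 and 459.2 ± 49.9 in NKDxIL15tg bone marrow, NKDxIL15tg spleen and IL15tg spleen. It fell in bone marrow by 0.57 on the log2 scale (adjusted p = 0.0379, but up to 0.138 when 1 array, other than NKDxIL15tg bone marrow replicate 3 and NKDxIL15tg spleen replicates 1 and 2, was left out). Another of the tested probe sets of Nr3c1 (6 sets in all) passed in both organs (-0.55, adjusted p = 0.0311, and -0.58, adjusted p = 0.0336). The remaining 2 tested sets did not pass. Nr3c2, the mineralocorticoid receptor, did not pass (means of 67.8 ± 4.49, 55.8 ± 16.2 and 63.3 ± 8.15, adjusted p = 0.731 and 0.579).

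Of 10 genes known to respond to glucocorticoid, 9 were tested, with 1 risen and 4 fallen in NKDxIL15tg bone marrow and 1 risen and 2 fallen in NKDxIL15tg spleen. Over all tested genes, 11.5% rose and 8.7% fell in bone marrow and 7.65% rose and 4.87% fell in spleen. Sgk1, a kinase gene induced by both corticosteroid receptors, fell to 74.3 ± 10.4 in NKDxIL15tg bone marrow and 104.9 ± 6.02 in NKDxIL15tg spleen, against 1023 ± 169 in IL15tg spleen. These were changes of -3.78 (adjusted p = 2.32e-06 in limma) and -3.27 ± 0.15 (adjusted p = 4.15e-06). Klf9 averaged 373 ± 51.4, 386.2 ± 21.8 and 703 ± 119 in NKDxIL15tg bone marrow, NKDxIL15tg spleen and IL15tg spleen and fell by its brightest probe set (-0.91, adjusted p = 0.00386, and -0.85 ± 0.15, adjusted p = 0.0077). The other 3 tested probe sets of Klf9 (7 sets in all) gave -0.44 to 0.43 in bone marrow, where the last passed (adjusted p = 0.033), and -0.38 to 0.34 in spleen. Dusp1, a phosphatase gene, fell in bone marrow (-2.51 ± 0.37, adjusted p = 0.00197) and was at -1.28 in spleen (adjusted p = 0.0511). Tsc22d3, which encodes the glucocorticoid-induced leucine zipper, fell in bone marrow (-0.81 ± 0.22, adjusted p = 0.0305, up to 0.0924 without any 1 of the IL15tg arrays or NKDxIL15tg bone marrow replicate 1), although its 3 other probe sets gave -0.92 (adjusted p = 0.0597), -0.10 (adjusted p = 0.783) and -0.05 (adjusted p = 0.789). Ddit4 went the other way, with 0.52 in bone marrow (adjusted p = 0.0126, but 0.0565 without IL15tg replicate 1) and 0.66 ± 0.11 in spleen (adjusted p = 0.00602). Sgk1, Dusp1 and other genes of this list also respond to signals other than corticosteroids, and glucocorticoid itself was not measured.

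The 6 genes lie on 4 chromosomes of the RefSeq gene order (GRCm38.p6): Cpe and Hsd11b2 on chromosome 8, Ccn3 and Tnfrsf11b on 15, Coch on 12 and Npy on 6. Only Ccn3 and Tnfrsf11b are close, with 2 protein-coding genes between them, Colec10 and Mal2. Colec10 averaged 31.3, 32.2 and 35.7 and Mal2 9.69, 7.14 and 7.48 in NKDxIL15tg bone marrow, NKDxIL15tg spleen and IL15tg spleen, below the filter in both cases. The high levels of Ccn3 and Tnfrsf11b were thus not shared by the 2 genes between them.

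The 5 nearest protein-coding genes on each side of the 6 gave 52 neighbours, of which 45 had a probe set and 31 were tested. By their brightest probe sets, 6 rose and 1 fell in NKDxIL15tg bone marrow against IL15tg spleen, and in NKDxIL15tg spleen 4 rose and 0 fell (limma, adjusted over all probe sets). At an unadjusted p under 0.05 in limma, 8 were higher and 3 lower in bone marrow and 9 higher and 2 lower in spleen. Of all tested genes, 11.5% rose and 8.7% fell in bone marrow and 7.65% rose and 4.87% fell in spleen. The log2 changes of the neighbours by these sets ran from -0.76 to 1.00 in bone marrow, with a median of 0.17, and from -0.40 to 0.94 in spleen, with a median of -0.01. Some neighbours fell by a dimmer set only. In bone marrow these were Tra2a (-1.10, adjusted p = 0.00206, and -0.93, adjusted p = 0.00123), Strn3 (-1.03, 0.0343), Osbpl3 (-0.84, 0.0191), Scfd1 (-0.81, 0.038) and Deptor (-0.41, 0.0453). In spleen they were Tra2a (-0.62, adjusted p = 0.0381), Osbpl3 (-0.71, 0.0495) and Ctcf (-0.50, 0.0211). A dimmer set of Mpp6 rose, as given below. Near Ccn3, the collagen gene Col14a1 rose in both organs (0.72, adjusted p = 0.00529, and 0.92 ± 0.13, adjusted p = 0.00247), although its 2 other probe sets gave 0.08 and -0.32 in spleen, and a floor of 64 raised the adjusted p in bone marrow to 0.142. Dscc1, a gene of sister chromatid cohesion, rose by 1.00 in bone marrow (adjusted p = 0.0152, up to 0.062 without IL15tg replicate 1 or 2) and by 0.94 ± 0.23 in spleen. Its spleen call had an adjusted p of 0.0269, and of up to 0.101 without any 1 of the IL15tg arrays or NKDxIL15tg spleen replicates 2 and 3. Mpp6, the gene next to Npy, rose by 0.75 in bone marrow (adjusted p = 0.00593) and by 0.52 in spleen (adjusted p = 0.0393). That spleen call had an adjusted p of 0.053 with the replicate block, 0.119 with scaling to the 75th percentile, and up to 0.124 when any array but NKDxIL15tg bone marrow replicates 2 and 3 was left out. Of the 2 other probe sets of Mpp6, 1 passed in bone marrow (0.85, adjusted p = 0.0111) and neither in spleen. Gsdme, a gasdermin gene beyond Mpp6, rose in bone marrow by 0.94 (adjusted p = 0.000886). Near Cpe, Trim60 rose by 0.51 in bone marrow (adjusted p = 0.00655) and by 0.43 ± 0.10 in spleen (adjusted p = 0.0182, but up to 0.0756 without IL15tg replicate 1 or 2 or NKDxIL15tg spleen replicate 2), and with scaling to the 75th percentile its adjusted p was 0.0593 and 0.0771. Klhl2, also near Cpe, fell in bone marrow by 0.76 on the log2 scale (adjusted p = 0.0193, up to 0.0704 without any 1 of the IL15tg arrays or NKDxIL15tg bone marrow replicate 2). Atp6v0d1, a proton pump gene next to Hsd11b2, rose there by 0.53 (adjusted p = 0.0228, up to 0.0861 without any 1 of the IL15tg arrays or NKDxIL15tg bone marrow replicate 1, and 0.0719 with scaling to the 75th percentile). Between the organs of NKDxIL15tg mice, 0 of 31 neighbours passed in limma (1 higher and 1 lower at an unadjusted p under 0.05).

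**Figure D4:**
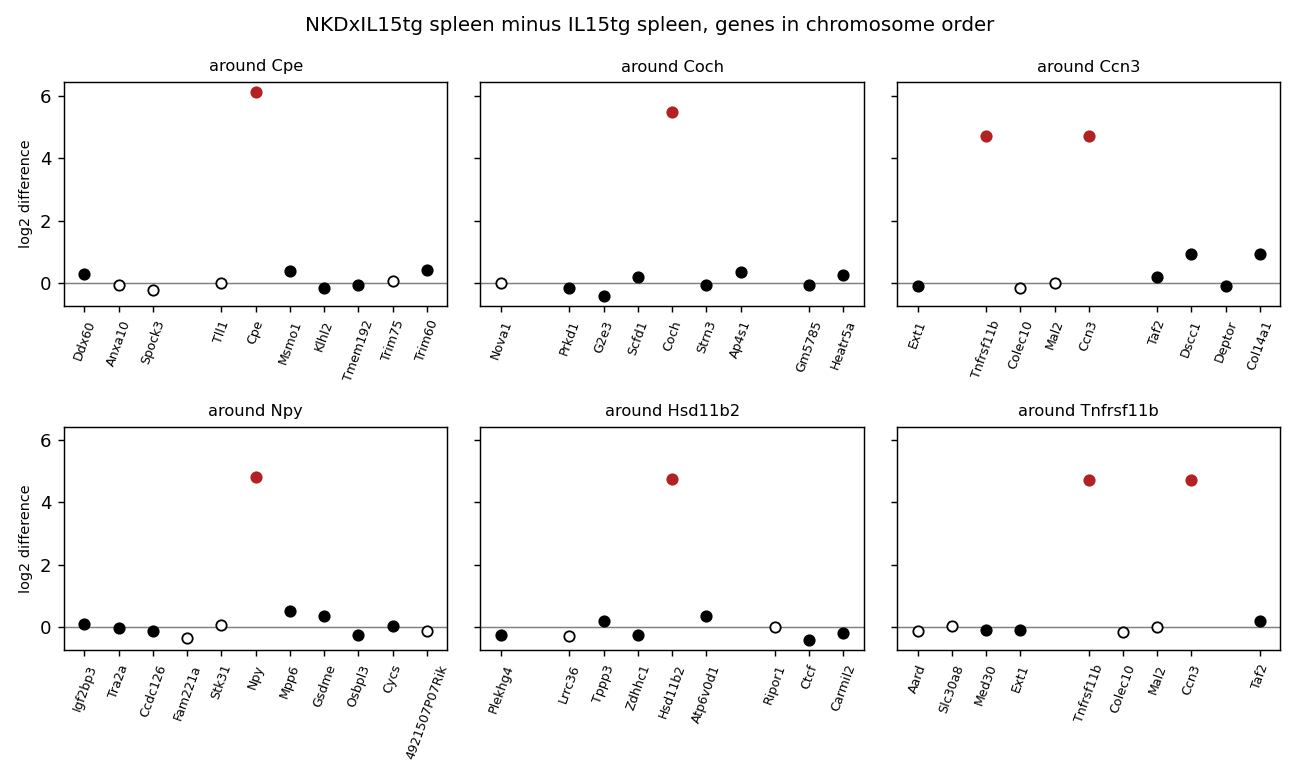
Log2 change of each of the 6 genes (red) and of its 5 nearest protein-coding genes on each side, in gene order and not to genomic scale, for NKDxIL15tg spleen against IL15tg spleen. Black points are tested genes, open points genes below the filter and gaps genes without a probe set. The 6 genes, of which Ccn3 and Tnfrsf11b also appear as neighbours of each other, lie between 4.72 and 6.10. No other tested neighbour lies above 0.94.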

How the data were processed

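RNA of sorted NK cells was labelled in 2 cycles of amplification, per the labels' protocols, and hybridised to 9 Affymetrix arrays. The authors deposited a linear intensity for each probe set on each array, and how it was summarised and scaled is not stated in the sources used here. Names of probe sets came from the platform annotation (34945 with 1 symbol, 932 with several, 9160 with none, 64 controls left out). Intensities under 16 (4.36% of values) were set to 16, a log2 transform was taken, and 27022 probe sets with a mean at or above the 40th percentile (log2 of 5.577) were tested. A model of 3 group means over all 9 arrays was fitted with limma 3.58.1 in R 4.3.3, and p-values were 2-sided and adjusted by Benjamini-Hochberg within each comparison over all tested probe sets (threshold 0.05). The brightest probe set with 1 symbol stood for a gene (12925 tested genes). Named genes were every list or neighbour gene past the threshold, up to 3 others per list and the nearest profiles. The 6 genes and all lists were chosen with earlier results of these data known. Array medians spanned 0.197 on the log2 scale. The median log2 change of all tested genes in NKDxIL15tg bone marrow against IL15tg spleen was 0.12, and 0.06 after quantile normalization. Arrays with the same replicate number deviated together from their group means in NKDxIL15tg bone marrow and spleen (r = 0.228 to 0.379) and in NKDxIL15tg and IL15tg spleen (0.123 to 0.163), but not throughout in NKDxIL15tg bone marrow and IL15tg spleen (-0.024 to 0.242); these correlations are across probe sets. Precision is limited by the number of arrays. Alternatives were another floor, no filter, quantile normalization, scaling to the 75th percentile, array weights, the replicate block and leaving out each array.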

Additional observations from a re-analysis of the deposited data

How the results depend on the processing

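In 16 other settings, 0 of the 6 genes passed between the organs of NKDxIL15tg mice, and each of the 6 lay higher in both NKDxIL15tg groups than in IL15tg spleen. Probe sets called in NKDxIL15tg spleen against IL15tg spleen numbered 3725, 5685 with array weights and 1809 to 5483 with 1 array left out. In NKDxIL15tg bone marrow against IL15tg spleen they numbered 5764, and 3089 to 6342 with 1 array left out. In NKDxIL15tg bone marrow against NKDxIL15tg spleen they numbered 14, against 4 with a floor of 64, 2 with no filter, 23 with the replicate block and 1 to 15 with 1 array left out (1 without NKDxIL15tg spleen replicate 1). Among calls of partner and neighbour genes by their brightest probe sets, the replicate block ended only those of Ccn5 and Mpp6 in spleen. Between organs Ccn3 turned to 0.06 without NKDxIL15tg bone marrow replicate 1 and to 0.09 without NKDxIL15tg spleen replicate 3, settings that break a replicate pair; within the 3 pairs it was lower in bone marrow each time. Hsd11b2 turned to -0.02 after quantile normalization, -0.05 after scaling to the 75th percentile, -0.13 without NKDxIL15tg bone marrow replicate 1 and -0.29 without NKDxIL15tg spleen replicate 3. Leaving out 1 array gave -1.25 to -0.83 for Cpe, -0.54 to 0.09 for Ccn3 and -0.29 to 0.29 for Hsd11b2. With a floor of 64, which by its construction raises dim values, the log2 differences from IL15tg spleen were 2.49 to 5.04 in NKDxIL15tg bone marrow and 2.72 to 5.26 in NKDxIL15tg spleen over the 6 genes. That floor also ended the calls of Itgb1, Nr3c1 and Tsc22d3 in NKDxIL15tg bone marrow and of Dscc1 in NKDxIL15tg spleen (adjusted p = 0.0558 to 0.0579). Testing with no filter ended the same calls (adjusted p = 0.0552 to 0.0593), and those of Pcsk1n in bone marrow (0.0674) and Mpp6 in spleen (0.0517). Quantile normalization ended the spleen calls of Ccn5 (adjusted p = 0.092), Mpp6 (0.123) and Trim60 (0.0681) and the bone marrow call of Atp6v0d1 (0.0526). Levels of the 6 genes in IL15tg spleen near or under the floor cannot be ordered.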

Other observations

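Probe sets of 1 gene disagreed in a few genes of the lists beyond those named above. For Nfatc1, a transcription factor downstream of RANK, a dimmer probe set gave 0.83 in NKDxIL15tg spleen against IL15tg spleen (adjusted p = 0.00259 in limma), while the brightest gave -0.29 (adjusted p = 0.597). For Itgb3, an integrin chain that CCN3 binds, a dimmer probe set gave -1.21 in NKDxIL15tg bone marrow (adjusted p = 0.00225) and -0.87 in NKDxIL15tg spleen (adjusted p = 0.0148) against IL15tg spleen, while its brightest probe set averaged 78.3 ± 2.00, 75.4 ± 3.54 and 71.1 ± 5.21 (SD, n = 3 arrays each) in NKDxIL15tg bone marrow, NKDxIL15tg spleen and IL15tg spleen. These probe sets were singled out after their values were seen.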
